A study of Mus musculus with 42 samples.

Results

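The 5 alcohol dehydrogenase genes described here, Adh7, Adh1, Adh6a, Adh4 and Adh5, lie side by side on mouse chromosome 3, and their placement relative to lamina-associated domains (LADs) was followed in liver. They were chosen by name and by position, as the genes of the cluster near a LAD region of chromosome 3, and are 5 of the 21938 protein-coding genes of the GENCODE vM21 annotation (chromosome M left out). Nearness to that LAD was thus part of the choice, so how near the genes are to a LAD, alone or against other genes, is given as a description. For each mouse, the distance to the LAD on the higher-coordinate side, the distance to the first LAD on the lower-coordinate side, and the presence of the first of these LADs were determined.

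Liver was taken from wild-type C57Bl/6 mice without a transgene, kept in 12 h light and 12 h dark. Non-synchronized (NS) mice were sacrificed at noon on the day before food was removed. The other mice had no food for 24 h, got it back ad libitum at circadian time 0 (CT0), and were sacrificed at CT0, CT6, CT12, CT18, CT24 or CT30, so the CT0 mice had been fasted, the mice of the later CTs fasted and then refed, and the NS mice neither. CT0 fell at lights on, so NS and CT0 mice also differ in time of day. Chromatin bound by lamin B1 (LMNB1) was immunoprecipitated and sequenced in 14 mice, 2 at NS and 2 at each CT. The labels give the sex as female in some fields and male in another, the methods give male, and no age is given in the sources used here. Each library comes from pieces of whole liver, so a LAD call is an average over hepatocytes and the other cells of the organ.

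Alcohol dehydrogenases are zinc enzymes that oxidize alcohols to aldehydes or ketones with NAD+ as the electron acceptor. Adh1 encodes the class I enzyme, which carries out most of the ethanol oxidation in liver and also acts on retinol. Adh4 encodes a class II enzyme that is abundant in liver, and Adh7 the class IV enzyme, best known from stomach and other epithelia and from retinol oxidation. Adh5 encodes the class III enzyme, a glutathione-dependent formaldehyde dehydrogenase present in nearly all tissues, and Adh6a a less studied relative. LADs are long stretches of chromatin in contact with the lamin meshwork under the nuclear envelope. They are in general poor in genes and in G+C, and genes within them are mostly silent.

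All 5 genes are read from the plus strand. On mm10, Adh7 spans chr3:138217760-138233382, Adh1 chr3:138260991-138290698, Adh6a chr3:138313286-138331134, Adh4 chr3:138415466-138430892 and Adh5 chr3:138443093-138455499. The cluster is 237.74 kb long from the start of Adh7 to the end of Adh5. Between Adh6a and Adh4 lie Adh6b (chr3:138341775-138358861) and the transcribed pseudogene Adh6-ps1 (chr3:138374121-138395002), which are not among the 5 and are given only for orientation. The smallest gap between neighbours of the 5, 12.2 kb, separates Adh4 from Adh5, and the largest, 84.3 kb, separates Adh6a from Adh4.

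RefSeq promoters (GRCm38.p6, 250 bases before to 50 bases after the start) were found for 5 of the 5 genes, with 2 for Adh5, 6 in all. A stretch of each of 3 of them, from 80 bases before the start to the 20th transcribed base, is shown because the starts of genes in 1 cluster, at nearly the same distance from a LAD, differ in base composition and motifs. Capitals mark a motif match.
Adh1, plus strand, chr3:138277505-138277604, an E-box (CACGTG): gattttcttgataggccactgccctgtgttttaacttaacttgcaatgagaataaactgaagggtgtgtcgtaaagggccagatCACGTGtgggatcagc
Adh6a, plus strand, chr3:138313206-138313305, a TATA box (TATAAA): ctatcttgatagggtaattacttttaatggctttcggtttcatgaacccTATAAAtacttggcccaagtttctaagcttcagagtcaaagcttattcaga
Adh5, plus strand, chr3:138443013-138443112, GC boxes (GGGCGG, here on the opposite strand): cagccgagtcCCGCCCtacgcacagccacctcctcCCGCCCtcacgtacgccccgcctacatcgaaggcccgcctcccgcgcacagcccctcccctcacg

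The Adh5 start was the one rich in CpG: its 300 bases held 26 CpG and 65% G+C, against a median of 7 CpG and 52.7% G+C over 32851 RefSeq promoters. The other 5 promoters held 1 to 6 CpG and 39.3 to 47% G+C. Of 4 motifs searched on both strands, TATAAA is found in 13.6% of all promoters, GGGCGG in 35.7%, CACGTG in 7.15% and TTATGTAA (a D-box) in 0.938%. TATAAA lies 31 to 26 bases before the start of Adh6a, and farther up, outside the stretches shown, in the Adh7 promoter and in the upstream Adh5 promoter. CACGTG, the E-box bound by CLOCK and BMAL1 among others, lies 4 to 9 bases after the start base of Adh1. The downstream Adh5 promoter holds GGGCGG 3 times, Adh4 none of the 4 motifs, and none of the 6 promoters holds TTATGTAA. The RefSeq start of Adh1 lies 16.594 kb inside the GENCODE gene, and all distances below are measured from the GENCODE gene body.

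The 14 libraries held 86 to 341 LADs each and 5 to 25 on chromosome 3, and covered 335.297 to 662.991 Mb. The files give a start and an end for each LAD and no score or read count, so the read depth is unknown. The only error computed here is the spread between mice. The study also reports technical variation between repeated runs of the LAD caller, which was not estimated for this LAD. The starts of a library lie on a grid whose step, the bin size of the LAD caller, was 4 to 61 kb. Of 66 regions of chromosome with a LAD in all the other 11 CT libraries, 4 (6.06%) had none in CT30 replicate 2, and of 77 such regions 15 (19.5%) had none in CT0 replicate 1. Because CT30 replicate 2 lacks the LAD followed here, each result below that rests on it is also given without it.

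None of the 5 genes lay in a LAD. Their transcription start sites were outside LADs in 14 of 14 mice, and so was every base of their gene bodies, also when only LADs of at least 1 Mb were used. For comparison, 16.7% of protein-coding genes had their start in a LAD in at least 1 mouse and 0.83% in all 14. Each of the 5 genes lay within 2.5 Mb of a LAD in 13 of 14 mice. Of the 20807 genes with a distance in all 14 mice, 16.8% lay within 2.5 Mb of a LAD in at least 13. Nothing is read from this, because the cluster was picked as one near a LAD. Outside LADs in all 14 mice and within 2.5 Mb in at least 13 were 8.83% of genes. The 5 genes share a single border and count as 1 observation.

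The LAD in question lies on the higher-coordinate side, beyond Adh5. Taken over the CT libraries it fills a region of 2.964 Mb, chr3:139128001-142092000, whose near limit is 672.501 kb from the end of Adh5. A LAD was called there in 13 of 14 mice, as 1 unbroken domain each time. Its length was 1.41 to 2.73 Mb with a median of 1.952 Mb. The part covered in all 13 mice, chr3:139880001-140926000, is 1.046 Mb long, which is 35.3% of the region, and begins 1.4245 Mb from Adh5.

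Before fasting the near border lay 0.869 Mb from the cluster in NS replicate 1 and 1.36 Mb in replicate 2. At CT0 the distance was 0.712 Mb in replicate 1 and 0.961 Mb in replicate 2, and at CT6 it was 0.705 and 0.772 Mb. At CT12 it was 1.42 Mb in replicate 1 and 1.39 Mb in replicate 2. CT12 was thus the time point at which the LAD began farthest from the genes in both mice.

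At CT18 replicate 1 had a distance of 1.21 Mb and replicate 2 of 0.769 Mb. At CT24 the distances were 0.845 and 0.937 Mb. CT30 replicate 1 had the shortest of all, 0.673 Mb, and CT30 replicate 2 had no LAD in the region. In that mouse the first LAD on this side, chr3:158102001-159436000, was 19.6 Mb away. Over the 13 mice with the LAD the median distance was 0.869 Mb, and in 9 mice the cluster lay within 1 Mb of it.

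**Figure D1:**
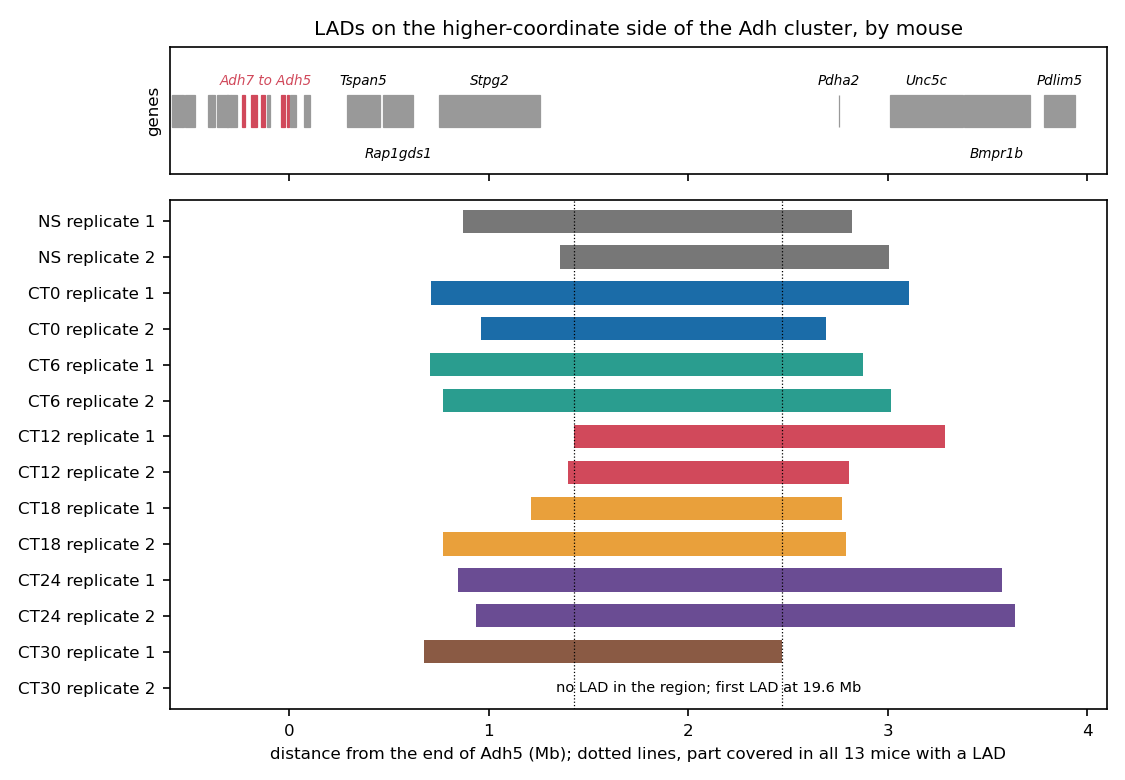
Extent of the LAD in each of the 14 mice (bars) against the distance from the end of Adh5 in Mb, with protein-coding genes above (Adh genes in red). The LAD begins 0.673 to 1.42 Mb from Adh5 in 13 mice, farthest at CT12, and 1 CT30 mouse has no LAD in the region.

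For NS mice the mean distance on the higher-coordinate side was 1.11 ± 0.345 Mb (SD, n = 2 here and below). The CT0 mean was 0.836 ± 0.176 Mb, the CT6 mean 0.738 ± 0.0474 Mb and the CT12 mean 1.41 ± 0.0212 Mb. CT18 mice averaged 0.991 ± 0.315 Mb, and CT24 mice 0.891 ± 0.0651 Mb. The 2 CT12 mice differed by 0.03 Mb and the 2 CT18 mice by 0.445 Mb. Over CT0 to CT30, with the 19.6 Mb of CT30 replicate 2 entered as measured, the spread between time points was no larger than that between mice of 1 time point (F ratio 0.941, p = 0.916, exact permutation test with the 10395 ways to pair 12 libraries). Without CT30 replicate 2 the F ratio was 4.57 (exact permutation test, p = 0.0784).

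Over the 10 mice of CT0 to CT24, a choice made after the values were seen, the F ratio was 4.96 (exact permutation test with 945 pairings, p = 0.0804). With CT12 left out as well it was 0.654 (exact permutation test, p = 0.638). The 2 CT12 mice stay together in 11.1% of the 945 pairings, so a difference at 1 time point alone however large, need not fall below 0.05 in this design. Leaving out 1 further mouse gave p from 0.018 (without CT18 replicate 2) to 0.213 in the same exact permutation test.

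Both CT12 mice had a larger distance than both CT0 mice, by 0.574 Mb on average, and both CT24 mice a smaller one than both CT12 mice, with a mean difference of -0.519 Mb (exact permutation test of 2 against 2, p = 0.333 for each, the smallest p this design allows, 0.4 after Benjamini-Hochberg adjustment over 6 comparisons). NS and CT0 overlapped, with a mean difference of -0.277 Mb (exact permutation test, p = 0.667). All 5 genes followed the border: 5 of 5 had a larger distance to the nearest LAD in both CT12 than in both CT0 mice, against 9.78% of all genes that did so and 19.5% that had a smaller one. From CT12 to CT24, 5 of 5 had a smaller distance, against 14.9% of all genes with a smaller and 16.7% with a larger one. Between NS and CT0, 0 of 5 separated in either direction, against 9.06% of genes with a larger and 11.1% with a smaller distance at CT0.

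The distance at CT12 was also larger than in any of the 8 mice of CT0, CT6, CT18 and CT24, which lay between 0.705 and 1.21 Mb. Such a separation was found for 0.692% of all genes, and for 5 of 5 Adh genes through their common border. This comparison was chosen after the values were seen and is given as a description. It leaves out CT30, where the nearest LAD of the 5 genes in replicate 2 was 12.7 to 12.9 Mb away, farther than at CT12.

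The CT0, CT12 and CT24 mice were set against the CT6, CT18 and CT30 mice, since a 12 h period was named by the study for the far end of this LAD. For the near border of the mice with a LAD the means were 1.05 ± 0.295 Mb (SD, n = 6) and 0.826 ± 0.221 Mb (SD, n = 5), a difference of 0.219 Mb that did not pass the exact permutation test (p = 0.197). With CT30 replicate 2 entered at 19.6 Mb the difference was -2.92 Mb (exact permutation test, p = 0.896), in the opposite direction.

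**Figure D2:**
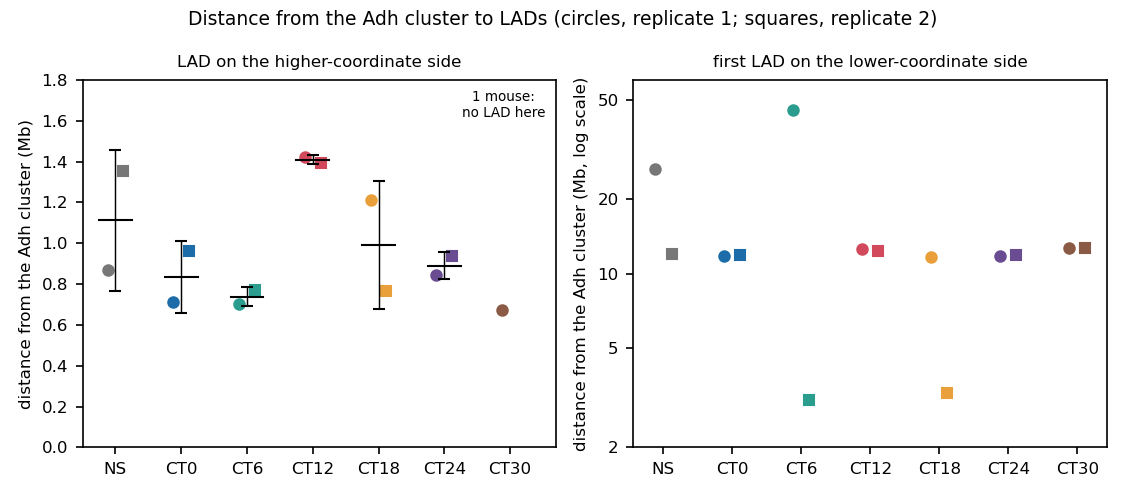
Distance in Mb from the Adh cluster to the LAD of the region (left, linear axis) and to the first LAD on the lower-coordinate side (right, log axis) in each mouse, by time point, with the mean and SD of the 2 mice at left. The CT12 mice stand at 1.39 and 1.42 Mb at left, and 10 of 14 mice lie between 11.6 and 12.7 Mb at right.

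The far border was the one named for its period in these same libraries, and its positions are given without a test. It lay at 142030000 in CT24 replicate 1 and at 142092000 in CT24 replicate 2, farther out than in any other mouse. The next was CT12 replicate 1 at 141745000, whereas CT12 replicate 2 ended at 141260000 and CT30 replicate 1 at 140926000. Over all 13 mice the far border ranged over 1.166 Mb (SD 340 kb, n = 13) and the near border over 0.752 Mb (SD 278 kb, n = 13). Among 85 regions with a LAD in at least 11 of the 12 CT libraries, the median range over the libraries was 0.931 Mb for the 5′ border and 1.034 Mb for the 3′ border. A smaller range than here was found for 38.8% of 5′ borders and 52.9% of 3′ borders.

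In NS mice the LAD covered 1.8 ± 0.215 Mb of the region (SD, n = 2 here and below). It covered 2.06 ± 0.47 Mb in CT0 mice, 2.21 ± 0.0523 Mb in CT6 mice and 1.64 ± 0.322 Mb in CT12 mice. For CT18 the value was 1.79 ± 0.328 Mb, and for CT24 it was 2.72 ± 0.0212 Mb. At CT30 it was 1.798 Mb in replicate 1 and 0 Mb in replicate 2. The CT24 mice had the longest LADs, and the time points as a whole did not pass the test (F ratio 2.18, exact permutation test, p = 0.134). Without CT30 replicate 2 the F ratio was 3.38 (exact permutation test, p = 0.11).

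On the lower-coordinate side, before Adh7, the first LAD was in most mice over 10 Mb away. In 10 of 14 mice the distance was 11.6 to 12.7 Mb, to a LAD that ended between 125519000 and 126578000 on chromosome 3. NS replicate 1 had none closer than 26.2 Mb and CT6 replicate 1 none closer than 45.4 Mb. A LAD in the nearer region on that side, chr3:134310001-135102000, was called in 2 of 14 mice. It lay 3.12 Mb from Adh7 in CT6 replicate 2 and 3.32 Mb in CT18 replicate 2. The 2 mice of CT6 thus differed by 42.3 Mb.

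Between CTs the distance on the lower-coordinate side did not pass the test (F ratio 0.412, exact permutation test, p = 0.872). The CT12 and CT0 means differed by 0.613 Mb and CT24 minus CT12 was -0.59 Mb, with groups that did not overlap (exact permutation test, p = 0.333 for each). With LADs of at least 1 Mb only, CT12 minus CT0 was 0.227 Mb and the groups overlapped (exact permutation test, p = 1). CT0 minus NS was -7.26 Mb, also without overlap (exact permutation test, p = 0.333), and -0.111 Mb without NS replicate 1. With LADs of at least 1 Mb it was -7.19 Mb and the groups overlapped (exact permutation test, p = 0.667). The mice with the long distances had few LADs on chromosome 3, 5 in NS replicate 1 and 7 in CT6 replicate 1. The 2 mice with the short ones had many, 21 in CT6 replicate 2 and 24 in CT18 replicate 2. Other mice did not follow this: CT0 replicate 1 also had 5 LADs there but a distance of 11.8 Mb. NS replicate 2, with 25, and CT0 replicate 2, with 22, had distances of 11.9 Mb. The part of library-wide LAD number in these distances was not tested.

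The stretch without a LAD that held the cluster was 4.125 to 46.34 Mb long in single mice, with a median of 13.31 Mb. In CT30 replicate 2 it was 32.568 Mb long. The cluster was off centre in it: the distance on the lower-coordinate side was a median of 10.97 times that on the higher-coordinate side. In 13 of 14 mice the nearest LAD of all 5 genes was the one beyond Adh5. In CT30 replicate 2 it was on the other side, 12.7 Mb from Adh7 and 12.9 Mb from Adh5.

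Because the genes share the border, they differ in distance by their own positions, and the order is the same in the 13 mice with the LAD. The median distance to the nearest LAD over 14 mice was 0.903 Mb for Adh5, 0.927 Mb for Adh4, 1.03 Mb for Adh6a, 1.07 Mb for Adh1 and 1.12 Mb for Adh7. Adh5 ranged from 0.673 to 12.9 Mb, and Adh7 from 0.895 to 12.7 Mb. Within a mouse, neighbours in this order differed by the same amount in all 13 mice, from 24.6 kb (Adh4 and Adh5) to 99.8 kb (Adh6a and Adh4), since the border is common to both. The border itself varied between mice with an SD of 278 kb. Adh5 and Adh4 lay within 1 Mb of a LAD in 9 mice, Adh6a in 7, and Adh1 and Adh7 in 5.

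Among all protein-coding genes the median of this distance was 3.69 Mb. A smaller median than that of Adh5 was found for 19.7% of genes, and a smaller one than that of Adh7 for 22.7%. Between CT0 and CT30 the distance of none of the 5 genes passed the test across all genes (F ratios 0.908 to 0.911, exact permutation test, p = 0.89 to 0.895, adjusted p = 1). Over all genes 6.05% had an unadjusted p below 0.05 and 0% an adjusted one, 1233 and 0 of 20370. Over CT0 to CT24 the 5 genes had an F ratio of 4.96 (exact permutation test, p = 0.0804, adjusted p = 1), with 2.03% of genes below 0.05 unadjusted and 0% adjusted. The 945 pairings set a floor for p that is too high for adjustment over 20226 genes to pass readily. Nothing is therefore read from the adjusted values of CT0 to CT24.

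Genes for the other enzymes and carriers of ethanol and retinol oxidation were examined in the same way, from a list of 24, of which 24 were found. The start of 0 of 24 lay in a LAD in any mouse, against 16.7% of all protein-coding genes with the start in a LAD in at least 1 mouse. Their median distances ranged from 0.151 Mb (Aldh1a1, a retinaldehyde dehydrogenase) to 32 Mb (Cyp2e1, the microsomal ethanol-oxidizing cytochrome), with a median of 3.63 Mb, near the 3.69 Mb of all genes. Aldh2, the mitochondrial enzyme that removes the acetaldehyde made by alcohol dehydrogenases, had a median of 25.7 Mb (lowest 12.2, highest 35.7 Mb). Cat (catalase) had one of 2.12 Mb.

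Aldh1a1, Aldh1a7 and Rdh5 (a retinol dehydrogenase) were the 3 of 24 with a smaller median than Adh5. Aldh1a1 and Aldh1a7 are neighbours on chromosome 19, with medians of 0.151 and 0.351 Mb and highest values of 29.1 Mb each. Adhfe1, an iron-containing alcohol dehydrogenase of another family, had a median of 1.01 Mb. Between CTs 0 of 24 passed the adjusted test and 1, Acss1 (an acetyl-CoA synthetase of mitochondria), had an unadjusted p of 0.0367 (exact permutation test, adjusted p = 0.717). That is 1 of 24 against the 6.05% of all genes.

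**Figure D3:**
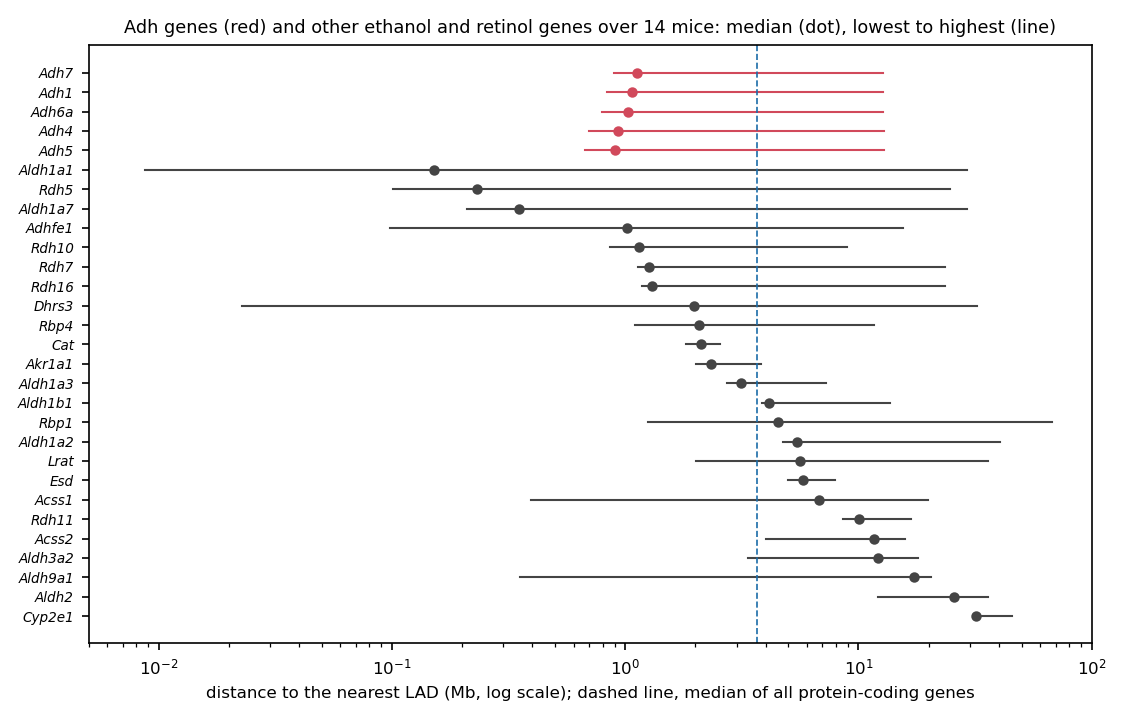
Distance to the nearest LAD in Mb (log axis) for the 5 Adh genes (red) and 24 other genes of ethanol and retinol oxidation, as the median of 14 mice (dot) and the lowest to highest mouse (line). The Adh genes have medians of 0.903 to 1.12 Mb, below the 3.69 Mb of all protein-coding genes (dashed line).

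A pair of other loci with liver genes is set beside the cluster as a description, with no test, since the cluster was picked as one near a LAD. The 6 genes of the Slco1 cluster on chromosome 6, organic anion transporters, had a median over mice of 7.99 Mb and the 5 Adh genes one of 1.01 Mb, and the Adh genes were nearer to a LAD in 13 of 14 mice. The mean difference was -6.91 Mb over 14 mice, -12.5 Mb in the 7 mice numbered replicate 1 and -1.28 Mb in the 7 numbered replicate 2. The Slco1 distances were longest, 29.7 and 29.8 Mb, in CT0 replicate 1 and NS replicate 1, the mice with 5 LADs on chromosome 3.

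The 4 genes of the albumin locus on chromosome 5, which encode albumin and its relatives among plasma proteins, had a median over mice of 3.03 Mb. The Adh genes were nearer in 13 of 14 mice, and the exception was CT30 replicate 2, at 12.8 Mb against a range of 1.74 to 4.4 Mb for the albumin locus in the 14 mice. With that mouse the mean difference was -0.896 Mb, and without it -1.72 Mb. None of the 10 genes of both loci had its start in a LAD in any mouse, against 16.7% of all protein-coding genes in at least 1 mouse.

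The protein-coding genes between Adh5 and the region number 4, and in no mouse did any of them have its start in a LAD. For the CT mice this follows from how the region was set, as the union of their LADs, so only the NS mice could have differed. They are Metap1 (a methionine aminopeptidase, the nearest to Adh5), Eif4e (the cap-binding initiation factor), Tspan5 and Rap1gds1. Stpg2 was the first gene that the LAD reached. Its body overlapped the LAD in 10 mice, and its start, 0.75 Mb from Adh5, lay in it in 3, CT0 replicate 1, CT6 replicate 1 and CT30 replicate 1. Its body was free of the LAD in both CT12 mice, in NS replicate 2 and in CT30 replicate 2.

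Pdha2, a testis-specific subunit of pyruvate dehydrogenase, had its start in the LAD in 11 of 14 mice. At the far end, the start of Unc5c, a netrin receptor, lay in it in 5 mice, among them both CT24 mice. The body of Bmpr1b, a receptor for bone morphogenetic proteins, was reached in 2 mice and its start in 0. On the lower-coordinate side the start of Tacr3, a tachykinin receptor, was in a LAD in 2 mice, CT6 replicate 2 and CT18 replicate 2.

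The cluster and the region differ in sequence composition on mm10. The cluster had 42.8% G+C and 25.2 protein-coding starts per Mb, a density that depends on cutting the stretch at the ends of Adh7 and Adh5. The stretch from Adh5 to the region had 43.1% G+C and 5.95 starts per Mb. The region had 38.0% G+C and 1.01 starts per Mb, and its part covered in all 13 mice had 37.3% G+C and 0 starts. Chromosome 3 as a whole had 40.5% G+C and 6.27 starts per Mb. Of the 50-kb windows of chromosome 3, 76.3% had less G+C than the mean of the cluster and 25.0% less than the mean of the region. The region on the lower-coordinate side that carried a LAD in 2 mice had 38.2% G+C.

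**Figure D4:**
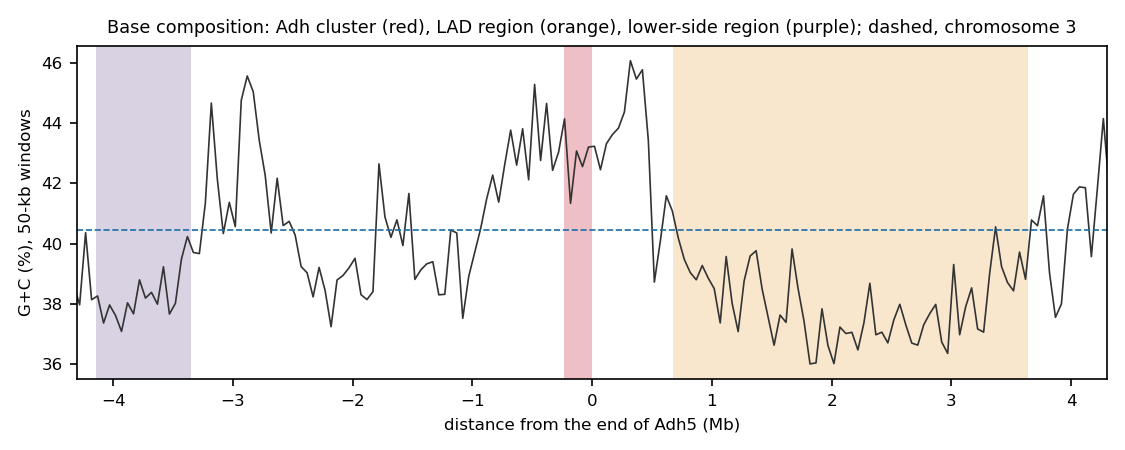
G+C content in percent of 50-kb windows (line) against the distance from the end of Adh5 in Mb, with the Adh cluster (red), the LAD region (orange), the lower-side region (purple) and the chromosome 3 mean (dashed). The cluster has 42.8% and the LAD region 38.0% G+C, on either side of the 40.5% of the chromosome.

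The genes on other chromosomes whose distance to the nearest LAD was most like that of Adh1 over 14 mice were Olfr121, Ctnna3, Fam135b, Rttn and Skint1, each with a Pearson r of 0.996. These 5 are among 28 genes that overlapped a LAD in all mice except CT30 replicate 2 and had the same r, so the likeness rests on that mouse. Over the 13 mice with the LAD, a choice made after the values were seen, the most alike were Aktip (r 0.829), Wnt7a (0.778), Cfap221 (0.776), Slit3 (0.752) and Hnrnpa2b1 (0.716). These were picked as the highest r among all genes on other chromosomes. How high r gets by chance in such a search was not tested, so they are given as a description. All values of a mouse come from 1 library and share its bin size.

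The bin size of the libraries was set against the distance. Over 14 mice the distance on the higher-coordinate side and the log2 bin size gave a Pearson r of 0.307 (permutation p = 0.429, adjusted 0.429) and a Spearman rho of -0.35 (permutation p = 0.218, adjusted 0.328, over 3 relations computed). Over the 13 mice with the LAD, a choice that was not planned, r was -0.562 (permutation p = 0.0482) and rho -0.589 (permutation p = 0.036), both not adjusted. Distances were shorter at larger bins in this set. Without the 2 mice farthest from the median bin size r was -0.496 (permutation p = 0.124) and rho -0.636 (permutation p = 0.0401). Among these mice, within replicate 1 r was -0.782 (n = 7, permutation p = 0.0371) and within replicate 2 -0.212 (n = 6, permutation p = 0.636).

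The CT12 libraries had bin sizes of 5 and 10 kb. CT0 replicate 2, with 4 kb, and CT6 replicate 2, with 11 kb, had distances of 0.961 and 0.772 Mb. CT18 replicate 2, with 6 kb, had 0.769 Mb, and NS replicate 2, with 4 kb, had 1.36 Mb. The part of bin size in the CT12 distance was not tested. The length covered in the region and the LAD coverage of the library gave a Pearson r of 0.302 (permutation p = 0.305, adjusted 0.429) and a Spearman rho of 0.134 (permutation p = 0.65, adjusted 0.65). Without the 2 mice farthest from the median coverage r was -0.0458 (permutation p = 0.889). The distances on the lower-coordinate side fall into separate clusters, and no pooled correlation is given for them.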

How the data were processed

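The authors removed duplicate reads, mapped LMNB1 ChIP-seq to mm10, down-sampled ChIP and input to equal depth by chromosome, and called LADs in every mouse with Enriched Domain Detector, its gap penalty and bin size being means of repeated runs. The deposited files hold a start and an end per LAD, in base pairs, with no score or read count. No replicate was pooled. Inputs and RNA-seq (7 and 21 samples) were not analysed here.

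LADs were used as deposited. Distances ran from the GENCODE vM21 gene body to the nearest LAD base, 0 where they overlap by 1 bp. A gene was in a LAD when its transcription start site was. The bin size is the largest step in kb dividing the starts that lie on whole kb (82 of 2845 do not). The cluster gives 1 value per mouse. Time points were compared by an F ratio with all divisions of the libraries into pairs, groups of 2 by an exact permutation test, and loci by sign flips of the paired difference, whose p-values are not given because nearness to a LAD was part of the choice of the cluster. Correlations used 100000 resamples. F ratios were tested for large values only, and the other tests were two-sided. The threshold was 0.05, and p-values are Benjamini-Hochberg adjusted only where the text says so.

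The members and lists were chosen with earlier results of these data known. Named genes are the 5 members, other Adh genes of the cluster, protein-coding genes in the LAD region, the nearest gene on each side, the list of 24, and the 5 genes on other chromosomes, over 5 Mb apart, most correlated with Adh1. The nearest protein-coding genes are 4930579F01Rik before Adh7 and Metap1 beyond Adh5. Eif4e, Tspan5, Rap1gds1, Tacr3 and the genes alike over 13 mice were added after their values were seen. Replicate numbers were not used to pair the mice in the main tests, and whether they mark batches is not stated. Over 21 pairs of time points the correlation of deviations was -0.118 to 0.512 and passed 0.1 in 8. The bin size was larger in replicate 1 at NS, CT0, CT6 and CT18, and larger in replicate 2 at CT12, CT24 and CT30. Alternatives were the replicate block, each library left out, LADs of at least 1 Mb, log distances, the start site and the intersect of replicates. Python 3.11.15, NumPy 2.4.6, SciPy 1.17.1 and Matplotlib 3.10.9 were used, and the tests were checked on simulated data.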

Additional observations from a re-analysis of the deposited data

How the results depend on the processing

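With 2 mice per time point, no score per LAD and unknown depth, the only error computed is the spread between mice. Several values are decided by 1 mouse. Leaving out each library gave F ratios of 0.764 to 2319 on the higher-coordinate side (highest without CT30 replicate 1, exact permutation p = 0.00731), 0.27 to 31.7 on the lower-coordinate side (highest without CT6 replicate 2, exact permutation p = 0.000192) and 1.44 to 12.3 for the covered length (highest without CT30 replicate 1, exact permutation p = 0.00837). In each of these the extreme mouse of a time point stands alone and adds nothing to the spread within time points. On the higher-coordinate side without CT30 the F ratio was 15.7 when CT18 replicate 2 was left out too (exact permutation p = 0.018), and 3.98 with the replicate block (exact permutation p = 0.175). The contrast of CT0, CT12 and CT24 with the other CTs was -3.58 to 0.219 Mb, and reversed, 0.219 Mb, without CT30 replicate 2. The genes with an unadjusted p below 0.05 numbered 2210 with LADs of at least 1 Mb and 550 (without CT12 replicate 1) to 3100 (without CT0 replicate 2), and the cause was not tested. For the loci, given as descriptions, against the Slco1 cluster the difference was -7.78 to -5.22 Mb with 1 library left out and -1.28 Mb in replicate 2 alone. Against the albumin locus it was -1.72 (without CT30 replicate 2) to -0.689 Mb with 1 library left out, -0.324 on the log10 scale, -1.85 Mb in replicate 1 alone and 0.0555 Mb in replicate 2 alone, which holds the mouse without the LAD. The relation to bin size turned to -0.782 within replicate 1 and -0.562 in the 13 mice with the LAD, and that to coverage to -0.0458 without the 2 farthest mice and -0.00637 in the 13. Whether the replicate numbers mark batches is not stated. With the replicate block the F ratio was 0.939 on the higher-coordinate and 0.445 on the lower-coordinate side, 1064 genes passed unadjusted and 0 adjusted, and no call between time points changed. Of 212 values recomputed, 192 kept their direction and their side of the threshold or moved little, and 20 did not. Of these, 7 reversed, 7 passed the threshold newly, 1 no longer passed it and 5 counts moved by over 1.5 times. The 1 was against the Slco1 cluster, and the 7 include settings of the albumin locus, loci given above without a test. The rest of the 7 left a time point with 1 mouse. Differences of 2 time points could not pass, with a smallest exact permutation p of 0.333. Leaving out CT30 replicate 2 is counted under 2 names on the higher-coordinate side. The tally is thus no measure of stability.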
